A study of Rattus norvegicus with 20 samples.

Results

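The genes of oxidative phosphorylation were followed in the proximal femur of 4 inbred rat strains. All probe sets were taken whose gene symbol began with Nduf, Uqcr, Cox4, Cox5, Cox6, Cox7, Cox8 or Atp5, or was Sdha, Sdhb, Sdhc, Sdhd or Uqcc6. This gave 97 probe sets for 87 genes, out of 31042 probe sets on the array that were not controls and 14217 genes that could be named. Of these, 44 probe sets (40 genes) belonged to complex I, 5 (4 genes) to complex II, 9 (8 genes) to complex III, 19 (19 genes) to complex IV and 20 (16 genes) to ATP synthase. A further 7 probe sets, which the annotation gives to a second gene as well, were left out, and with them the genes Atp5mc1, Cox7a2, Atp5mc2, Uqcrb, Ndufs5 and Ndufa10 and a further probe set for Cox5a. The rule also took in Cox6c-ps1, annotated as a pseudogene of Cox6c, whose signal may be shared with that gene. Above the filter on low signals, at a mean of 170 signal units, were 93 probe sets of 86 genes. Below it were Cox7b2 and the dimmest probe sets of Atp5if1, Atp5po and Ndufa9.

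Oxidative phosphorylation takes place in the inner mitochondrial membrane. Complexes I and II pass electrons from NADH and succinate to ubiquinone, complex III passes them to cytochrome c, and complex IV passes them to oxygen. Complexes I, III and IV pump protons across the membrane, and ATP synthase uses the proton gradient to make ATP. The mitochondrial genome encodes a few core subunits, and the genes described here are nuclear. Skeletal muscle fibres are rich in mitochondria, and some subunits of complex IV have a separate form in striated muscle.

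The 20 arrays came from 5 rats each of the congenic strain P.NP, the alcohol-preferring strain P, the congenic strain NP.P and the alcohol-nonpreferring strain NP, all aged 4 weeks. P.NP rats carry a segment of chromosome 4 from NP on the P background, and NP.P rats carry the same segment from P on the NP background. The groups differ by strain only, with no treatment, and each congenic strain is a single line. The deposited signals had been scaled to an equal mean on every array, and their median was between 292 and 322 on the 20 arrays. The ratio of 3′ to 5′ signal lay between 1.03 and 1.15 for GAPDH and between 1.85 and 2.39 for beta-actin. Bone was not the sole tissue in the samples. Of the 22 skeletal muscle markers that could be named, 21 were above the filter, among them alpha-actin of skeletal muscle (Acta1), with mean signals of 70306 in P.NP, 70352 in P, 74256 in NP.P and 73755 in NP, and the fast troponin T gene Tnnt3. The summed signal of these markers ranged from 616878 to 804075 in P.NP, from 556261 to 808019 in P, from 630010 to 774103 in NP.P and from 496981 to 891903 in NP, so the 4 strains overlapped. In whole tissue, fewer cells of a type and less RNA per cell cannot be told apart.

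Most of the oxidative phosphorylation genes differed little between the strains. The largest difference was in Uqcc6, whose signal on the P background was less than on the NP background in every rat. Cox5a was higher in P than in NP rats. Ndufa5 and the brightest probe set of Atp5if1 were lower on the P background. Over all 4 strains, 4 of 93 probe sets passed the F test of limma at a false discovery rate of 10%, those of Uqcc6, Cox5a, Atp5if1 and Ndufa5, while 18.2% of the 18625 probe sets tested on the array passed it. The F test call of Ndufa5 was lost in 14 of 20 fits that left out 1 array. The range of the 4 strain means had a median of 0.15 on the log2 scale over the 93 probe sets, against 0.27 over all 18625, and the SD within strains had a median of 0.18 against 0.20.

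Uqcc6 encodes a small inner membrane protein that is needed for the assembly of complex III, as known from human cells and zebrafish. Its gene lies on chromosome 7, outside the chromosome 4 segment. In P.NP rats its signals were 765, 717, 724, 666 and 665. In P rats they were 680, 867, 751, 687 and 809. In NP.P rats they were 1739, 2024, 1886, 2347 and 1960, and in NP rats 1939, 2288, 2070, 1855 and 1850. All 10 rats on the P background lay below all 10 on the NP background. The difference between the backgrounds was -1.44 ± 0.06 (log2, SE), a signal 2.72-fold lower on the P background (limma, adjusted p = 4.69e-12). P minus NP was -1.40 ± 0.09 (adjusted p = 3.72e-09). Exchange of the chromosome 4 segment left it within the replicate spread, with differences of -0.10 ± 0.09 for P.NP minus P (adjusted p = 0.891) and -0.01 ± 0.09 for NP.P minus NP (adjusted p = 0.981).

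**Figure D1:**
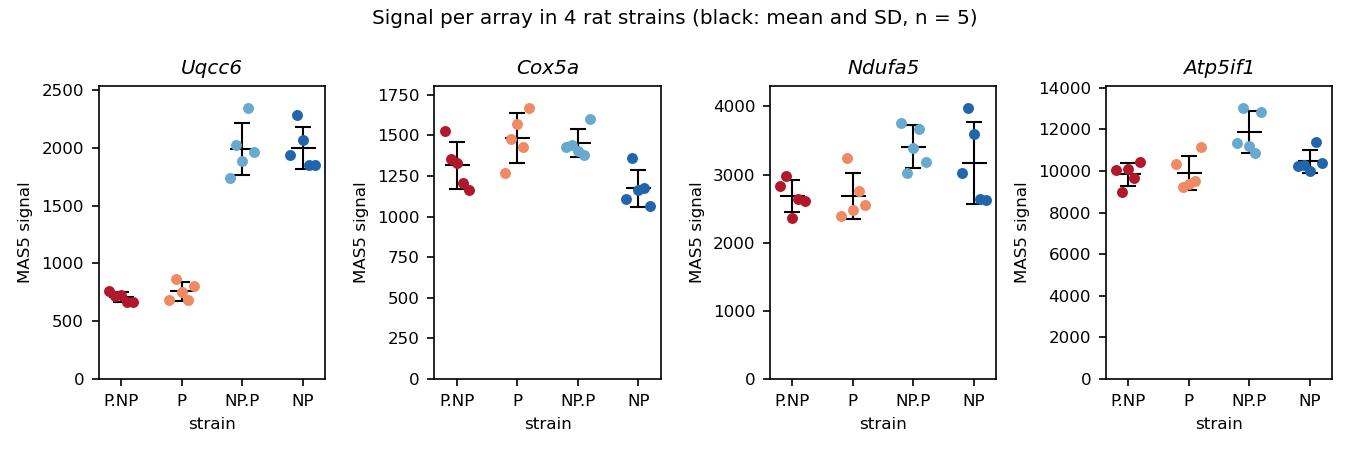
MAS5 signal (vertical axis, linear, from 0) of Uqcc6, Cox5a, Ndufa5 and Atp5if1 on each array of the strains P.NP, P, NP.P and NP, with the mean and SD in black (n = 5 each). Uqcc6 lay between 665 and 867 on the P background and between 1739 and 2347 on the NP background, while for Cox5a, Ndufa5 and Atp5if1 the 2 backgrounds overlapped.

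Cox5a encodes a subunit of complex IV that is encoded in the nucleus. It was read at a single probe set, and its other probe set, shared with a second gene, was left out and not compared. Its signals were 1528, 1356, 1327, 1208 and 1161 in P.NP rats and 1266, 1478, 1570, 1427 and 1670 in P rats. They were 1430, 1443, 1401, 1379 and 1599 in NP.P rats and 1107, 1361, 1164, 1177 and 1064 in NP rats. The NP rats were low, and 4 of the 5 lay below every P and NP.P rat. P exceeded NP by 0.33 ± 0.09 (log2, SE; limma, adjusted p = 0.0430). NP.P exceeded NP by 0.31 ± 0.09, which missed the threshold (adjusted p = 0.110). P.NP minus P was -0.17 ± 0.09 (adjusted p = 0.697), and the backgrounds differed by 0.09 ± 0.06 (adjusted p = 0.336). The P minus NP call was lost without P replicate 3 (adjusted p = 0.106), P replicate 5 (adjusted p = 0.104) or NP replicate 5 (adjusted p = 0.108), and in a limma fit of P and NP alone (adjusted p = 0.143).

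On chromosome 4, Ndufa5 lies outside the interval from Arf5 to Ppp4r2, taken here for the exchanged segment. Ndufa5 encodes an accessory subunit in the peripheral arm of complex I. Its mean signal was 2683 ± 236 in P.NP, 2689 ± 336 in P, 3407 ± 315 in NP.P and 3174 ± 600 in NP (SD, n = 5 each). The signals on the 2 backgrounds overlapped, with 2362 to 3240 on the P background and 2626 to 3982 on the NP background. The P background differed by -0.29 ± 0.08 on the log2 scale (limma, adjusted p = 0.0225). Atp5if1 encodes the inhibitor of ATP synthase, which binds the enzyme when it would run backwards and break down ATP. Its mean signal was 9839 ± 547 in P.NP, 9921 ± 815 in P, 11861 ± 1007 in NP.P and 10464 ± 544 in NP (SD, n = 5 each), and the NP.P rats were the highest. The P background differed by -0.17 ± 0.05 (adjusted p = 0.0266). A dimmer probe set of Atp5if1 gave 0.14 ± 0.14, in the other direction and without a call (adjusted p = 0.545). The erythroid marker score, the mean log2 deviation of 17 red cell genes, was also highest in NP.P, at 0.25 ± 0.06, against -0.16 ± 0.06 in P.NP, -0.09 ± 0.06 in P and -0.00 ± 0.10 in NP (SD, n = 5 each). With that score in the fit, the background difference was -0.11 ± 0.11 for Atp5if1 (adjusted p = 0.772) and -0.17 ± 0.18 for Ndufa5 (adjusted p = 0.789). The SE were larger with the score in the fit because the score differed by strain, and the part of red cells in these differences cannot be told apart from that of strain.

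The calls among the 93 are given here beside the share of the whole array. Where that share is small, a count of 0 does not set these genes apart. In P minus NP, 2 of 93 probe sets passed (Cox5a higher, Uqcc6 lower), with 5.36% of all probe sets called. In NP.P minus NP, none of the 93 passed, with 2.30% of all called. An unadjusted limma p under 0.05 was held by 7 of the 93, against 13.1% of all. In P.NP minus P, none of the 93 passed, with 0.231% of all called. None had an unadjusted p under 0.05, against 7.70% of all. Between the backgrounds 4 of the 93 passed, with 22.5% of all called. Of these, 1 was higher on the P background (11.1% of all) and 3 were lower (11.3% of all). The higher one was a dimmer probe set of the complex I gene Ndufa7, with a difference of 0.31 ± 0.12 (adjusted p = 0.0967), while its brighter probe set gave -0.00 ± 0.14 (adjusted p = 0.990). After quantile normalization, 4 were higher and 3 lower, with 22.0% of all called in either direction. The test of whether the segment acted differently on the 2 backgrounds called none of the 93, with 0.317% of all called. There 1 of the 93 had an unadjusted p under 0.05, against 9.71% of all.

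The median difference over the 93 probe sets was 0.07 in P minus NP, with 72 above 0, against 0.00 over all probe sets. In NP.P minus NP the median was 0.10, with 79 above 0, against -0.01 over all. These comparisons share the NP arrays. In P.NP minus P the median was -0.01, with 42 above 0, and between the backgrounds it was 0.02, with 56 above 0. The skeletal muscle score, the mean log2 deviation of the 22 markers, averaged 0.07 ± 0.20 in P.NP, 0.06 ± 0.32 in P, 0.06 ± 0.20 in NP.P and -0.20 ± 0.39 in NP (SD, n = 5 each), with the NP rats from -0.64 to 0.39. With that score in the fit, the median turned to -0.04 in P minus NP, with 16 above 0, and to -0.03 in NP.P minus NP, with 33 above 0. With the erythroid score in its place it was 0.16 in P minus NP and -0.16 in NP.P minus NP. Of P minus NP and NP.P minus NP, the muscle score therefore turned the sign in both, and the erythroid score only in NP.P minus NP. The muscle score also turned the median between the backgrounds, to -0.04, with 22 above 0. The erythroid score also turned the median of P.NP minus P, to 0.06, with 79 above 0. The part of these scores in the shared shift between strains was not tested.

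**Figure D2:**
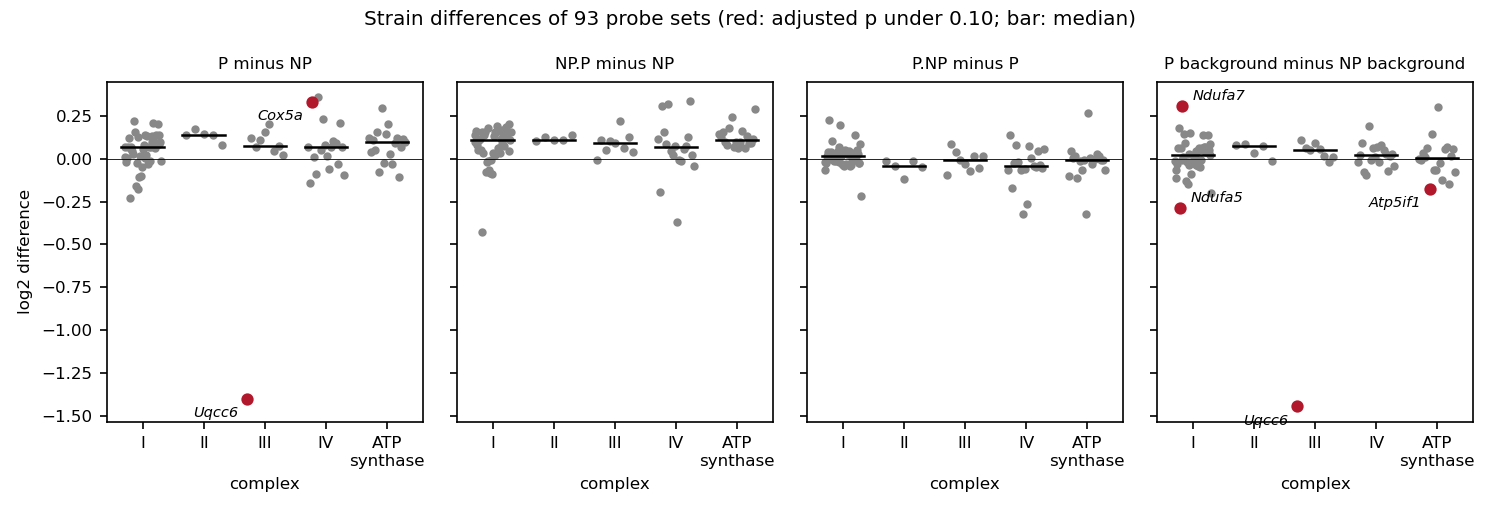
Log2 difference (vertical axis) of each of the 93 probe sets above the filter, by complex (horizontal axis), in P minus NP, NP.P minus NP, P.NP minus P, and P background minus NP background. Red points passed a false discovery rate of 10% over all 18625 probe sets and bars are medians. Most points lay close to 0, with Uqcc6 at -1.40 and -1.44 as the farthest.

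The central subunits named in each complex had no call between strains by limma. Ndufb2, an accessory subunit of complex I, was the only one of the 87 genes inside the interval taken for the exchanged segment. It had mean signals of 16144 ± 1683 in P.NP, 15589 ± 1603 in P, 15769 ± 1038 in NP.P and 15648 ± 2548 in NP (SD, n = 5 each). Its differences were 0.05 ± 0.10 for P.NP minus P and 0.02 ± 0.10 for NP.P minus NP (adjusted p = 0.969 and 0.958). For Sdha, Sdhb, Sdhc and Sdhd, the 4 subunits of succinate dehydrogenase, P minus NP lay between 0.14 and 0.17 at the brightest probe set, with adjusted p values of 0.573 to 0.661. Ndufs1, the largest core subunit of complex I, gave 0.21 ± 0.18 in P minus NP. Uqcrc1, a core subunit of complex III, gave 0.11 ± 0.11, and Cox5b of complex IV gave 0.01 ± 0.12. The catalytic beta subunit Atp5f1b gave 0.04 ± 0.10 and the alpha subunit Atp5f1a 0.12 ± 0.12. Cox7a2l, which joins complexes III and IV into supercomplexes, varied little, with signals from 10764 to 12002 in P.NP, from 10832 to 11517 in P, from 10238 to 11002 in NP.P and from 10596 to 10883 in NP.

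Within the strains the genes rose and fell together from rat to rat, along with the skeletal muscle markers. The slope of log2 signal on the muscle score, with strain means removed, was positive for 83 of 93 probe sets. It passed the test for 75 of 93, while 19.4% of all probe sets passed. Of the 75, 74 were positive, against 9.35% of all, and 1 was negative, against 1867 of the 18625. The median slope was 0.48 log2 units per log2 unit of the score, against -0.06 over all probe sets. The muscle markers and the 87 genes share no gene. The slope was positive for 82 of 93 probe sets among the P.NP rats alone, 82 among P, 83 among NP.P and 85 among NP. The medians were 0.59, 0.47, 0.31 and 0.49, against -0.05, -0.05, -0.02 and -0.06 over all probe sets. Each rests on 5 rats, and the probe sets moved together, so these counts are not independent observations. The slope on the muscle score was chosen after the values were seen. The score also ran with the replicate number in the labels. It was below 0 in replicates 1 and 5 of all 4 strains and above 0 in replicate 2 of all 4. Without NP replicate 2, which had the highest score among NP rats, 64 passed (9.32% of all). With the replicate number as a block in the fit, 48 passed (6.23% of all).

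**Figure D3:**
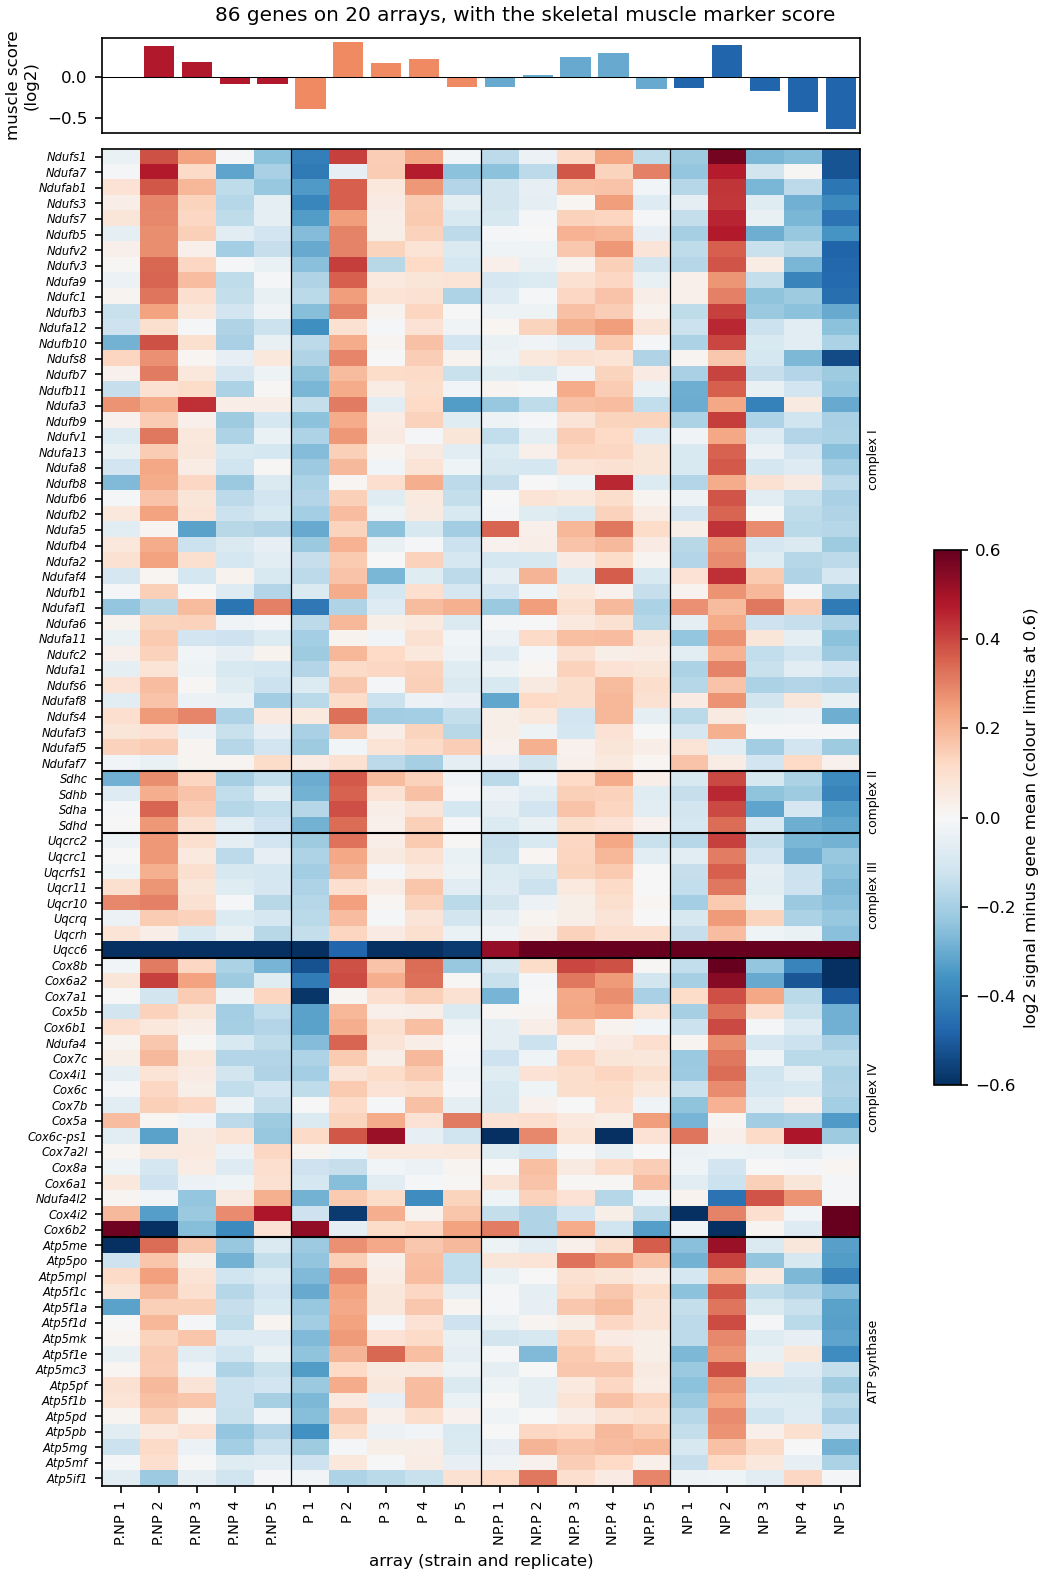
Log2 signal minus the gene's mean over 20 arrays (colour, limits at -0.6 and 0.6) for the 86 genes above the filter, each at its brightest probe set, by complex and then by slope. Columns are arrays by strain, and the bars on top give each array's skeletal muscle marker score. Most rows change colour with the score, from -0.64 in NP replicate 5 to 0.43 in P replicate 2, whereas Uqcc6 divides the 2 backgrounds.

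By complex, the slope was positive and passed for 5 of 5 probe sets of complex II (median 0.72), 9 of 9 of complex III (median 0.49), 36 of 43 of complex I (median 0.48), 14 of 18 of ATP synthase (median 0.49) and 10 of 18 of complex IV (median 0.35). All 6 probe sets of core subunits of complex I passed, with a median of 0.74 and from 0.50 for Ndufv1, which binds NADH, to 0.99 ± 0.09 for Ndufs1. Among the 30 of accessory subunits 27 passed (median 0.48). Of the 7 probe sets of complex I assembly factors, which help to build the complex but are not part of it, 3 passed (median 0.28), those of Ndufaf4, Ndufaf8 and Ndufaf3. All 3 calls were lost without NP replicate 2, and also when the strain means were not removed. Succinate dehydrogenase was close to uniform, at 0.68 ± 0.10 for Sdha, 0.73 ± 0.08 for Sdhb, 0.77 ± 0.08 for Sdhc and 0.63 ± 0.07 for Sdhd. The inhibitor Atp5if1, at -0.20 ± 0.09 (adjusted p = 0.143), did not pass, and Atp5me, a subunit of the membrane part of ATP synthase, had 0.64 ± 0.26 (adjusted p = 0.110). Uqcc6 had a slope of 0.29 ± 0.10 (adjusted p = 0.0602). Its call was lost without NP replicate 2 and when the strain means were not removed. That of Uqcrh, also of complex III, was lost without NP replicate 2, as were some calls in complex I, complex IV and ATP synthase.

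**Figure D4:**
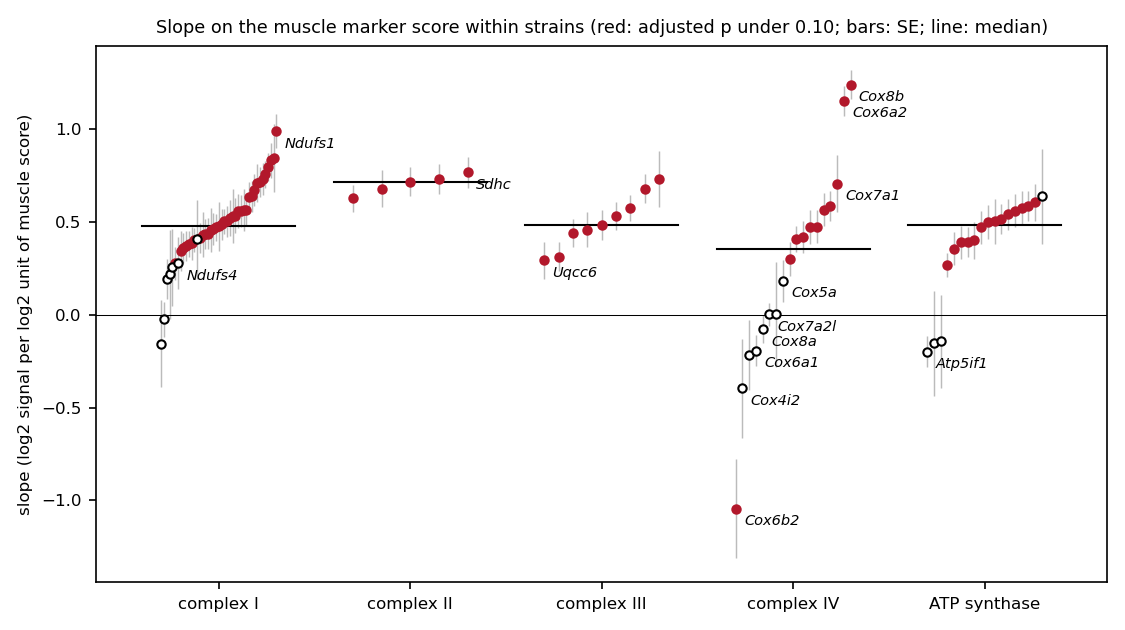
Slope of log2 signal per log2 unit of the skeletal muscle marker score with strain means removed (vertical axis), for the 93 probe sets by complex, with the SE as bars and the median as a line. Red points passed a false discovery rate of 10%, and open points did not. Complex IV ran from -1.05 for Cox6b2 to 1.24 for Cox8b, the lowest and the highest of the 93.

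Complex IV, where the slopes spread the widest, holds several genes with forms restricted to certain tissues. Cox6a2, Cox8b and Cox7a1 encode the forms of 3 subunits made in striated muscle, and Cox6a1, Cox7a2 and Cox8a encode the forms made in most other tissues. Cox7a2 had no probe set of its own. The promoters of the muscle genes are shown because these genes moved together, with that of Cox8a for contrast. They are RefSeq sequence of assembly GRCr8, 250 bases before to 50 after the gene's start, and not that of the P or NP strains. Capitals mark the E-box CAGCTG, a form of the site that myogenic factors such as MyoD bind, in the muscle genes, and in Cox8a the sites CCGGAAGT (ETS factors, such as GABP) and AAGGTCA (estrogen-related receptors), each on either strand.
Cox6a2 (chr1:192219667-192219966, minus strand): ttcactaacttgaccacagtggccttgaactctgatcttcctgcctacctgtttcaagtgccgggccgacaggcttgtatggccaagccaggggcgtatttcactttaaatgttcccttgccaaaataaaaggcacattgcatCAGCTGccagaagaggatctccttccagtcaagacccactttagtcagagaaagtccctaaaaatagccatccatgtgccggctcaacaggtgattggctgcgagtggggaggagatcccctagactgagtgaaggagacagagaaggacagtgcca
Cox8b (chr1:205408224-205408523, minus strand): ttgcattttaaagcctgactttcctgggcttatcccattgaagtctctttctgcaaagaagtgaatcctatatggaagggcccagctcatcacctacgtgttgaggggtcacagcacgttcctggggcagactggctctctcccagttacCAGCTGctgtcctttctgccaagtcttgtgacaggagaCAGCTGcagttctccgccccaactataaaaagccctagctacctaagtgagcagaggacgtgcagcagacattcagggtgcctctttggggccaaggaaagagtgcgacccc
Cox7a1 (chr1:94568966-94569265, plus strand): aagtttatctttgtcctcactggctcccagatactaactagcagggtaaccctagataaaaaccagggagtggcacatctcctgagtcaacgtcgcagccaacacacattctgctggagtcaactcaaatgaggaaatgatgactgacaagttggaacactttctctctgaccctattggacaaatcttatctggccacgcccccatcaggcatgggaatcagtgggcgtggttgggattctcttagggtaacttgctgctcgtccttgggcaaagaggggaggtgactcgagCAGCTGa
Cox8a (chr1:213833574-213833873, minus strand): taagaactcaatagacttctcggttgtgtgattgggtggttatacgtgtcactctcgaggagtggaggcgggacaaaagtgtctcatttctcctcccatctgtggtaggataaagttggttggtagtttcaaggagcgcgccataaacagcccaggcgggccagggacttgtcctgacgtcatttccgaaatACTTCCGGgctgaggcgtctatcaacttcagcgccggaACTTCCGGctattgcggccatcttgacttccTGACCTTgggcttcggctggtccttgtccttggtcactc
The E-box started at -107 in Cox6a2, at -100 and -62 in Cox8b, and at 44 in Cox7a1, which is after the start, counted from the gene's start. Cox8a held no CAGCTG. An E-box of this form lay in 12 of the 79 promoters found for the 87 genes, or 15.2%, and in 15.2% of the 21842 promoters of protein-coding genes.

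The signals of Cox6a2 were 24409, 30877, 27477, 20042 and 22079 in P.NP rats and 17400, 30502, 27033, 29211 and 23337 in P rats. They were 21202, 23098, 28911, 27766 and 21537 in NP.P rats and 20258, 33985, 18842, 16274 and 13257 in NP rats. The NP rats held both the highest and the lowest value. Its slope on the muscle score was 1.16 ± 0.08 (limma, adjusted p = 3.75e-08), and its correlation with the score within strains was r = 0.98 and rho = 0.96 over 20 arrays (permutation test, two-sided, p = 1e-05 for both, the smallest that 100000 permutations can give). Cox8b, from 14376 to 38970 in NP rats alone, had a slope of 1.24 ± 0.08 and r = 0.98 and rho = 0.95 (permutation p = 1e-05 for both). Cox7a1 had signals from 918 to 1101 in P.NP, from 663 to 1093 in P, from 818 to 1202 in NP.P and from 701 to 1296 in NP. Its slope was 0.71 ± 0.15, with r = 0.76 and rho = 0.71 (permutation p = 0.000940 for r and 0.00227 for rho).

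The counterparts made in other tissues did not rise with the score. Cox6a1 had signals of 13778, 12061, 12850, 12946 and 14013 in P.NP rats and 12224, 11033, 12616, 13045 and 13237 in P rats. They were 13887, 14802, 13217, 13246 and 14967 in NP.P rats and 12603, 12042, 14531, 13860 and 13071 in NP rats. Its slope was -0.19 ± 0.08 and did not pass over all probe sets (limma, adjusted p = 0.144), with r = -0.58 and rho = -0.57 (permutation p = 0.0208 for r and 0.0194 for rho). Cox8a had a slope of -0.08 ± 0.08 (adjusted p = 0.568) and r = -0.32 and rho = -0.28 (permutation p = 0.172 for r and 0.243 for rho). Adjusted over the 5 relations, the p for r was 2.5e-05 for Cox6a2 and Cox8b, 0.00157 for Cox7a1, 0.0260 for Cox6a1 and 0.172 for Cox8a. Without NP replicate 5 and P replicate 2, the 2 arrays farthest from the median score, r over 18 arrays was 0.98 for Cox6a2, 0.98 for Cox8b, 0.73 for Cox7a1, -0.58 for Cox6a1 and -0.18 for Cox8a. The log2 signal of Cox6a2 minus that of Cox6a1 on the same array changed with the score at r = 0.98 and rho = 0.96, and that of Cox8b minus Cox8a at r = 0.97 and rho = 0.96 (permutation p = 1e-05 for each, the smallest that the permutations can give). Cox7a2l had a slope of 0.00 ± 0.06 (adjusted p = 0.991).

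**Figure D5:**
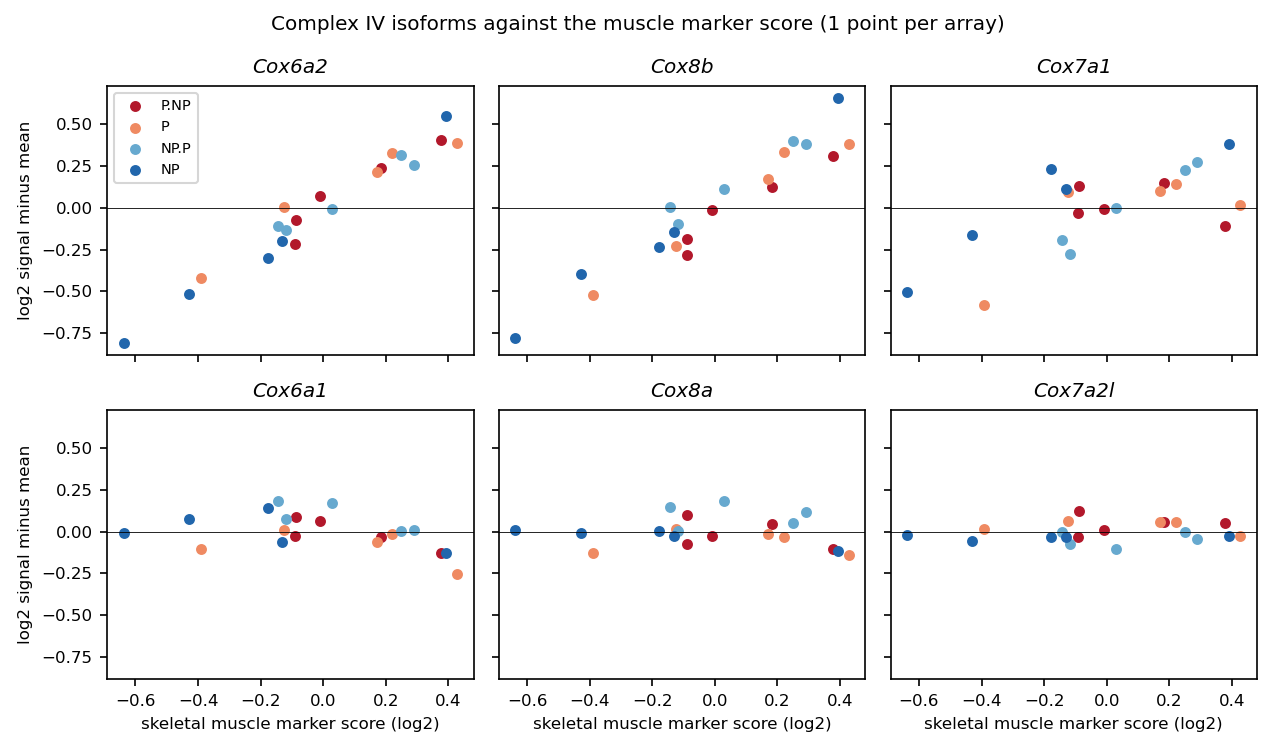
Log2 signal minus the gene's mean (vertical axis) against the skeletal muscle marker score in log2 units (horizontal axis) for the muscle forms Cox6a2, Cox8b and Cox7a1 (top) and for Cox6a1, Cox8a and Cox7a2l (bottom), 1 point per array, coloured by strain. The top row rises with the score (slopes of 1.16, 1.24 and 0.71) and the bottom row does not (slopes of -0.19, -0.08 and 0.00).

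Of the other complex IV genes named here with a restricted pattern of expression, only Cox6b2 had a slope that passed. Cox4i1, the ubiquitous form of subunit IV, had a slope of 0.42 ± 0.09 (adjusted p = 0.00348). Cox4i2, its form in lung and under low oxygen, had -0.40 ± 0.27 (adjusted p = 0.369), with mean signals of 517 ± 121 in P.NP, 467 ± 93 in P, 443 ± 27 in NP.P and 527 ± 165 in NP (SD, n = 5 each). Cox6b2, the testis form of subunit VIb, was the single negative call, at -1.05 ± 0.27 (adjusted p = 0.0133), with signals from 124 to 436 in NP rats, and the call was lost without NP replicate 2 (adjusted p = 0.167). Ndufa4, now counted with complex IV, had 0.48 ± 0.09, and Ndufa4l2, its paralog induced by low oxygen, had -0.22 ± 0.19 (adjusted p = 0.501).

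The muscle score moved with other tissues in the samples. Of the 12 cartilage markers, 9 had a negative slope on it that passed, with a median of -1.27 over the list, as did 6 of 10 osteoblast and bone matrix markers (median -0.37) and 3 of 4 osteoclast markers (median -0.53). The mean log2 deviation of the cartilage markers was -1.67 in P replicate 2, the array with the highest muscle score. The next lowest was -0.61, in NP replicate 2. The cartilage results were not fitted without P replicate 2, so their dependence on that array is not known. With a cartilage score in place of the muscle score, 26 of the 93 probe sets passed, 25 of them negative, while 9.22% of all passed. With an erythroid score none of the 93 passed, with 0 of all 18625 passing. The slopes on the erythroid score were still positive for 90 of the 93, with a median of 0.93, against -0.07 over all probe sets. The absence of calls there does not set these genes apart. The brown fat genes are relevant because Cox7a1 and Cox8b are also abundant there. Ucp1, which defines that tissue, had mean signals of 448 in P.NP, 357 in P, 490 in NP.P and 599 in NP and a slope of 1.51 ± 0.63 (adjusted p = 0.125), and Cidea had 0.47 ± 0.22 (adjusted p = 0.181), while Dio2 and Elovl3 were below the filter. The remaining gene of that list, Cpt1b, which skeletal muscle also expresses, had a slope of 1.60 ± 0.12 (adjusted p = 4.63e-08). The part of each tissue in the slopes was not tested.

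Most genes of the citric acid cycle and of electron carriers and exchange had positive slopes, while other neighbouring lists were mixed. Over the array, 9.35% of probe sets had a positive slope that passed. Of the 12 citric acid cycle genes outside complex II, 11 had a positive slope that passed (median 0.62), with 0.93 ± 0.09 for Idh3b of isocitrate dehydrogenase and 0.53 ± 0.07 for citrate synthase (Cs). Of the 10 genes of electron carriers and of ADP or phosphate exchange, 9 passed (median 0.57). Among them Slc25a4, the ADP/ATP carrier of heart and muscle, had 0.61 ± 0.08, while Slc25a5, the form of most other tissues, was the exception at -0.17 ± 0.08 (adjusted p = 0.146). Of 73 mitochondrial ribosome genes, 17 passed (median 0.13), as did 3 of 12 genes for the assembly of complex IV (median 0.16). Of 15 transcriptional and mitochondrial DNA regulators (median -0.04), 4 passed, all positive: Ppargc1a, a coactivator of mitochondrial biogenesis, at 1.19 ± 0.18, its relative Ppargc1b at 0.91 ± 0.26, Tfb2m at 0.36 ± 0.11 and Esrra at 0.33 ± 0.08. Nrf1 (-0.09 ± 0.15) and Tfam (0.05 ± 0.08) did not pass. Of 14 glycolysis genes (median 0.27), 7 passed with a positive and 3 with a negative slope, with the muscle form Pfkm at 1.15 ± 0.11 and the platelet form Pfkp at -0.32 ± 0.11. For subunits of complex IV encoded by mitochondrial DNA, COX1 had 0.56 ± 0.13 (adjusted p = 0.00935) and COX2 had 0.20 ± 0.12 (adjusted p = 0.332).

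Between the backgrounds, calls in the neighbouring lists differed by list. Of the 73 mitochondrial ribosome genes, 17 were lower on the P background and none higher (median -0.07), with Mrpl46 lowest at -0.31 ± 0.06 (adjusted p = 0.00101). Over the array, 11.3% were lower and 11.1% higher. Of the 14 glycolysis genes, 2 were higher on the P background, Pgk1 (0.85 ± 0.09) and Pfkm (0.42 ± 0.15), and 2 were lower, Hk1 (-0.33 ± 0.05) and Eno1 (-0.17 ± 0.04). None of the citric acid cycle genes or of the carriers passed. Among the 15 regulators, Esrra, which encodes estrogen-related receptor alpha, was higher on the P background by 0.25 ± 0.06 (adjusted p = 0.00752), and Tfb1m was lower (-0.16 ± 0.06, adjusted p = 0.0968). Of the 12 genes for the assembly of complex IV, Cox18 was higher (0.28 ± 0.07, adjusted p = 0.0114).

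With the muscle score in the fit, 16 of the 93 probe sets (17.2%) passed between the backgrounds, a smaller share than the 26.3% of all. Of the 16, 15 were lower on the P background. The share of all probe sets in each direction is not given for this fit, so no directed shift is read from that count. Besides Uqcc6 (-1.48 ± 0.05) and Ndufa5 (-0.35 ± 0.06), the smallest p values belonged to Ndufa12 of complex I (-0.19 ± 0.04), Atp5pb of the ATP synthase stalk (-0.20 ± 0.05), Cox5b (-0.16 ± 0.04) and Atp5mg (-0.17 ± 0.05). Their adjusted p values in limma were 0.00627, 0.00768, 0.0147 and 0.0155. The exception was the dimmer probe set of Atp5me, at 0.32 ± 0.13 (adjusted p = 0.0977).

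The promoters of the other genes held sites of factors known to act on nuclear genes of the respiratory chain. The NRF1 site GCGCATGCG lay in 8 of the 79 promoters (10.1%), against 1.92% of all 21842, among them those of Uqcc6, Uqcrc1 and Atp5mg. The YY1 site AAGATGGC lay in 17 (21.5%), against 3.68% of all. AAGGTCA lay in 11 (13.9%), against 3.78%, and CCGGAAGT in 8 (10.1%), against 4.78%. The TATA box TATAAA lay in 8 (10.1%), against 13.0%, and was present in Cox8b and absent from Cox6a2, Cox7a1 and Cox8a. CCAAT lay in 28 (35.4%), against 38.0%, and the GC box GGGCGG in 34 (43.0%), against 41.8%. Both strands were searched, and no motif searched contains another. These are matches of letters and not tests of binding.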

How the data were processed

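RNA from the proximal femur of 20 rats, 5 of each strain, was hybridized to Affymetrix arrays, with a separate array for each rat. The authors deposited linear MAS5 signal intensities, in which the trimmed mean of every array was the same. The study's own methods describe RMA values, which were not used here. Signals under 1 were set to 1 and log2 values were computed from the deposited intensities. Control probe sets (57) and probe sets with a mean below the 40th percentile were left out, which kept 18625 of 31042. Of the latter, 20826 were paired with 1 symbol, 436 with several and 9780 with none in the platform annotation. No name was taken from a probe set with several, so Cox7a2 was not read and 5 relations were tested.

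Strain means were fitted with limma 3.58.1 in R 4.3.3 (lmFit and eBayes, 16 residual and 2.78 prior degrees of freedom), with Benjamini-Hochberg adjustment over all 18625 probe sets and a false discovery rate of 10%. The background difference was the mean of P.NP and P minus that of NP.P and NP. The exchanged segment was taken as the interval between Arf5 and Ppp4r2, genes that the study lists within it. The markers that bound the segment in the study were not placed, so its true ends were not checked. The slope on the muscle score, chosen after the values were seen, was fitted together with the strain means. Correlations of the deviations from strain means were tested by 100000 permutations within strains (Python 3.11.15). Scripts were tested on simulated data.

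The members and gene lists were chosen with earlier results of these data known. A gene was read at its brightest probe set. Named were the called genes, the muscle isoforms and their counterparts, members within the segment, succinate dehydrogenase, a central subunit of each other complex, and the regulatory members Atp5if1, Ndufa4l2, Cox7a2l and Uqcc6. Other names, such as Ndufa7, Cox6b2, Atp5me and the neighbours outside the pathway, were added after their values were seen. Promoters came from RefSeq assembly GRCr8, where 79 of the 87 genes matched. No batch is given in the labels, and the number of arrays limits the precision. Alternatives were other filters, scalings and variance models, a replicate block, marker scores as covariates, fits of 2 strains, the methods' unequal-variance test and leaving out each array.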

Additional observations from a re-analysis of the deposited data

Results flagged for a closer look

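Of 92 strain groups, over 23 named genes, 10 held an array whose distance from its nearest neighbour took up most of the range of its 5 arrays. Chance alone flags about 1 in 20 such groups taken singly. The genes share the same arrays and moved together, so this rate does not test the count. In 6 of the 10 this array was NP replicate 2. It had the highest signal among NP rats for Ndufs1 (8801, next 5111), Sdha (16351, next 11580), Sdhb (31203, next 20717), Sdhd (24019, next 17872), Atp5f1b (41609, next 33481) and Cox4i1 (60263, next 45966). The same array had the highest skeletal muscle score among NP rats, at 0.39. P replicate 1, with the lowest muscle score among P rats at -0.39, was lowest for Cox7a1 (663, next 1002). The remaining 3 were NP.P replicate 5, highest for Cox5a (1599, next 1443), NP replicate 4, highest for Atp5if1 (11402, next 10376), and NP.P replicate 1, lowest for Cox4i1 (45390, next 50626). The part of muscle content in these values was not tested.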

How the results depend on the processing

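The Uqcc6 difference, and the slopes of Cox8b, Cox6a2, Cox7a1 and Ndufs1, kept their direction and call under the filters, scalings, variance model, replicate block and left-out arrays run for them. Median shifts over the 93 probe sets did change sign. With the muscle score they went to -0.04 in P minus NP (0.07 without a covariate) and to -0.03 in NP.P minus NP (0.10 without). Between the backgrounds the median went to -0.04 with that score (0.02 without). With the erythroid score it went to -0.16 in NP.P minus NP and to 0.06 in P.NP minus P (-0.01 without). The interaction median of -0.09 went to 0.04 with the muscle and 0.10 with the erythroid score. The medians near 0, in P.NP minus P and between the backgrounds, also changed sign with some single arrays left out. The F test count of 4 was 2 without a filter, 12 with the muscle score and 2 with the erythroid score as a covariate, and from 2 (without NP.P replicate 5) to 6 (without NP replicate 2) with 1 array left out. The F test call of Ndufa5 was lost in 14 of those 20 fits. The P minus NP count of 2 was 4 with the muscle score (7.14% of all) and 1 in a fit of P and NP alone (3.32% of all). With 1 array left out it ran from 1 to 3 (1 without P replicate 3, P replicate 5 or NP replicate 5). The NP.P minus NP count of 0 was 1 (Cox5a) with a filter at the 60th percentile (4.95% of all). It was also 1 (Cox5a) with a mean-variance trend (3.04% of all), and 1 (Atp5if1) with the muscle score (4.18% of all). With 1 array left out it ran from 0 to 2 (2 without NP replicate 2, 1 without P.NP replicate 1 or P replicate 1). P.NP minus P and the interaction gave 0 throughout. The background count of 4 was 7 after quantile normalization (22.0% of all), 16 with the muscle score (26.3% of all) and 1 with the erythroid score (1.57% of all). With 1 array left out it ran from 3 to 5. The Ndufa7 call was lost in 22 of its 27 alternatives. The cause of these changes was not tested.

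The slope count of 75 was 26 (9.22% of all) with cartilage markers in place of the muscle markers. It was 14 (839 of all 18625) with macrophage markers. With erythroid markers it was 0 (0 of all 18625), so that every named slope call was lost there, although 90 of the 93 slopes were positive (median 0.93). With 1 array left out it ran from 64 (without NP replicate 2, 9.32% of all) to 76. Without NP replicates 2 and 5 it was 61 (8.38% of all). Left-out arrays gave r from 0.97 to 0.98 for Cox6a2 and for Cox8b, from 0.69 to 0.85 for Cox7a1, from -0.67 to -0.47 for Cox6a1 and from -0.50 to -0.16 for Cox8a. After quantile normalization r was -0.59 for Cox8a, past the threshold (permutation test, adjusted p = 0.0119).

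Over all probe sets, the deviations of same-numbered arrays had a mean r of 0.05 over 30 pairs (-0.09 to 0.33, with 5 over 0.1). Over 120 other pairs it was -0.01 (-0.33 to 0.25, with 11 over 0.1). The ranges overlapped and the numbers were not taken to pair the rats, which does not exclude a shared batch. The muscle score did run with the number, and whether the numbers mark a shared batch is not given in the labels. With the replicate number as a block (replicate block), the counts were 4 in the F test, 2 in P minus NP, 0 in NP.P minus NP, 0 in P.NP minus P, 4 between backgrounds, 0 for the interaction and 48 for the slope, and r for Cox6a1 was -0.40 (permutation test, adjusted p = 0.187).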
